A study of Mus musculus with 4 samples.

Results

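The expressed genes of mouse chromosome 9 were followed in gene order through 4 clones of J558, a BALB/c (H-2Ld) plasmacytoma cell line grown from a tumour of antibody-secreting plasma cells. A gene was a member if a probe set carried its symbol alone and its mean log2(signal + 16) over the 4 arrays reached the median of all probe sets (6.03, a signal of about 49.4). The brightest probe set stood for the gene. Of 1006 chromosome 9 genes with such a probe set, 579 were members, among 10475 genes tested over all chromosomes. The members closest to the limit were Dzip1l (6.04) and Snapc5 (6.06), and the closest genes left out were Rasl12 (6.03) and Tmem89 (6.02), in mean log2 units. The chromosome and its stretches were chosen from the differences described here, so these differences are given as a description, with no test.

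AID, activation-induced deaminase, is the enzyme that deaminates cytosines in immunoglobulin genes during class switching and somatic hypermutation of B cells. All 4 clones descended from J558 cells that had been co-transfected with a Neo vector and were selected by G418. The 2 AID-silenced clones received pSilencer 1.0 holding an AID targeting sequence, and the 2 control clones received the silencing vector empty. The labels arrange them as pair 1 and pair 2, each of 1 control and 1 AID-silenced clone, and each clone was measured on 1 array of total RNA.

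A clone grows from a single cell, so the 2 clones of a group are separate lines and not repeats of the same culture. Mouse chromosomes carry their centromere at one end, so gene order along chromosome 9 runs from the centromere towards the far telomere. The chromosome holds genes of many unrelated functions, among them those for DNA damage kinases (Atm, Atr), glycolysis and respiration (Pkm, Cox5a), ribosomal proteins (Rpl4, Rpsa), the inflammasome protease caspase 1 (Casp1) and a cluster of chemokine receptors. Only RNA was measured, so transcription per gene copy, RNA stability and the number of gene copies cannot be told apart.

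Differences between 2 clones are log2 differences of (signal + 16), and 1 unit is 2-fold. Medians, running medians, steps and clone ranks are given after the median difference of all 10475 tested genes was subtracted (it lay between -0.07 and 0.001 in the 6 contrasts), whereas differences of single genes are as measured. On these arrays 4 contrasts were scanned along the chromosome: AID-silenced minus control in pair 1 and in pair 2, control pair 2 minus control pair 1, and AID-silenced pair 2 minus AID-silenced pair 1. The first pair of contrasts share no array, whereas each of the others shares an array with both of them. A running median was taken over 31 neighbouring members, and a stretch was a run of at least 16 members whose running median lay at or beyond 0.25 in 1 direction. A clone was named as the carrier of a stretch when its differences from the other 3 clones all reached 0.25 one way while those among the other clones did not.

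The chromosome divided into 4 segments. The proximal segment held 174 members from Alkbh8 to Usp28 and no stretch. The middle stretch held 208 members from Zw10 to Atp1b3, where the AID-silenced clone of pair 2 lay below its control. A further 12 members from Rnf7 to Pik3cb lay between the stretches. The distal stretch held 185 members from Cep70 to Ppp2r3d, the last member, where the AID-silenced clone of pair 1 lay above its control. In the middle stretch the clone that stood apart was the control clone of pair 2, which was higher than the other 3. In the distal stretch it was the control clone of pair 1, which was lower than the other 3.

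To place the steps between these levels without a window, the gene order was also divided at the points that left the smallest sum of absolute deviations from the medians of the pieces, a procedure added after the running medians were seen. Each contrast was divided once with 1 step and once with 2 steps, and no rule chose between them. Used here are 1 step for pair 1 and 2 steps for pair 2. The step of pair 1 and 1 step of pair 2 then fell at the same point, between Slc25a36 and Nmnat3. Slc25a36 encodes a mitochondrial nucleotide carrier and Nmnat3 an enzyme of NAD synthesis. The other step of pair 2 fell between Plet1 and Pts, which encodes an enzyme of tetrahydrobiopterin synthesis. The promoters of these 4 flanking genes are shown to place the steps on the chromosome. Each is the 250 bases upstream of the start of transcription in RefSeq, build GRCm38.p6, read 5′ to 3′ on the gene's strand. Capitals mark the GC box (GGGCGG, or CCGCCC on the other strand) and the CCAAT box (CCAAT, or ATTGG on the other strand). The Plet1 promoter lies at chr9:50494275-50494524 on the plus strand and the Pts promoter at chr9:50528657-50528906 on the minus strand. The Slc25a36 promoter lies at chr9:97111042-97111291 on the minus strand and the Nmnat3 promoter at chr9:98296320-98296569 on the plus strand.
Plet1: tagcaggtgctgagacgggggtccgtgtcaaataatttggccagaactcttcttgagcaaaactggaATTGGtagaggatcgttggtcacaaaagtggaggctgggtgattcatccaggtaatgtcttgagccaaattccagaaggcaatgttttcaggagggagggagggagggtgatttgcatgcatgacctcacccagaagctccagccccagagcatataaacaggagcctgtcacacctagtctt
Pts: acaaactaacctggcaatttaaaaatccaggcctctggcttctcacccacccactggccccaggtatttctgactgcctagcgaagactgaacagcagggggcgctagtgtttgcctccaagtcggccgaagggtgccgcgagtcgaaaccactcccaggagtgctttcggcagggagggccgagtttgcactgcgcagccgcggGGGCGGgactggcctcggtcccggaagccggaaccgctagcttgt
Slc25a36: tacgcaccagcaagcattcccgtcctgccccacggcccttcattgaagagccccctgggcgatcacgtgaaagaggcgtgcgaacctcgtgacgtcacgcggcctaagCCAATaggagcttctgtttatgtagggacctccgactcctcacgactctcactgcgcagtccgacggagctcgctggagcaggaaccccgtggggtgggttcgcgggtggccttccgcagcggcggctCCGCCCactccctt
Nmnat3: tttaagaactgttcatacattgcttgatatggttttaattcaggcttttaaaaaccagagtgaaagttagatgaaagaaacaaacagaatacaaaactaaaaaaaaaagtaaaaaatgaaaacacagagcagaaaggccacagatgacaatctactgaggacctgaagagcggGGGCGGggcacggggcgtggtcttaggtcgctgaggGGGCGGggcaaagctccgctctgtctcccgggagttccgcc

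The GC box occurs at 2 places in the Nmnat3 promoter, once in those of Pts and Slc25a36, and not in this window of Plet1, whereas the CCAAT box occurs once in Plet1 and once in Slc25a36. These matches do not overlap. Over all 32851 RefSeq promoters, 32.7% held a GC box and 33.8% a CCAAT box. RefSeq promoters were found for 513 of the 579 members (632 promoters), and 59.5% of them held a GC box and 36.4% a CCAAT box. By segment the GC box was held by 55.8% of proximal promoters, 64.1% of middle and 56.3% of distal ones, and the CCAAT box by 34.3%, 33.3% and 40.8%. The segments thus lay closer to each other than to the genome-wide share of the GC box, which is counted over expressed and silent genes alike. A match is a run of letters and not a measured binding site.

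**Figure D1:**
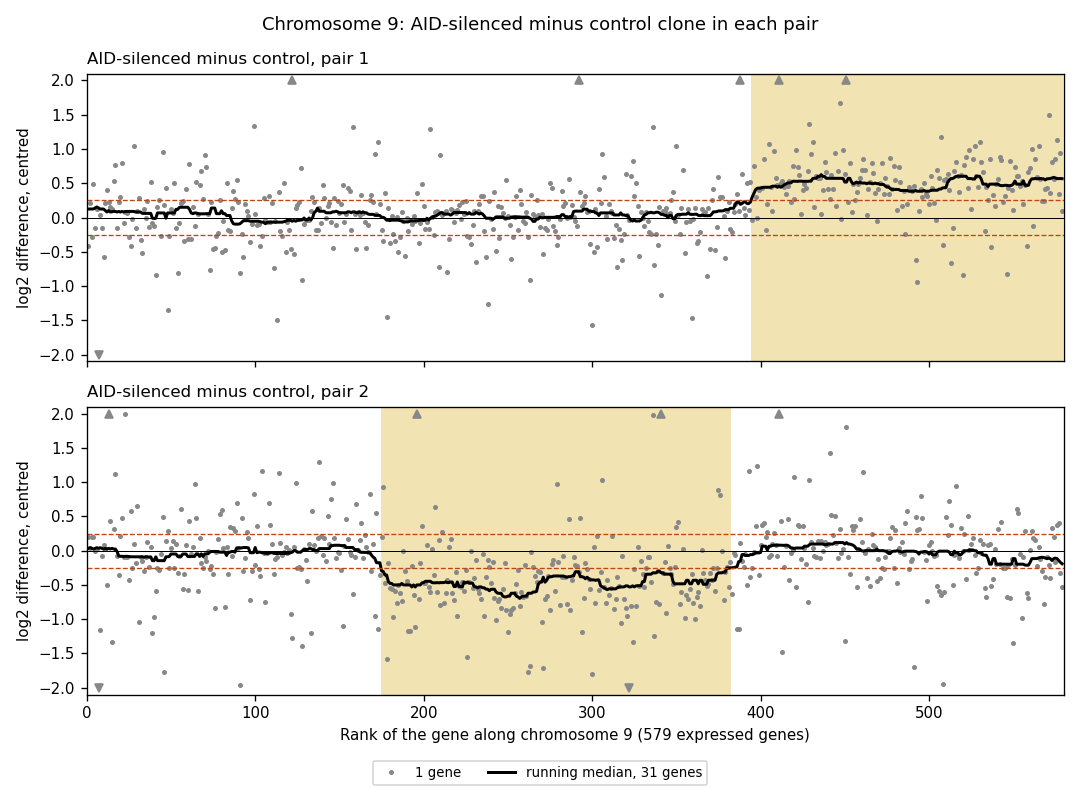
AID-silenced minus control as a log2 difference (y axis, centred on all tested genes) against gene rank along chromosome 9 (x axis) in pair 1 and pair 2. Each point is 1 of 579 members, the line is the running median over 31 members, dashed lines stand at 0.25 either way, triangles are points beyond the axis and shading marks stretches. Pair 1 is raised over the 185 distal members and pair 2 lowered over the 208 middle members.

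Within pair 2, the AID-silenced clone was lower than its control across the middle stretch by a median of 0.48 log2 units (median difference -0.48, interquartile range -0.72 to -0.20). Only 28 of the 208 members, or 13.5%, lay above 0. The running median was lowest at Cln6, a lysosomal storage disease gene, at -0.70. Over the same members the pair 1 difference had a median of 0.01 and lay above 0 for 109 of 208. Over this stretch the control clone of pair 2 exceeded the control clone of pair 1 by a median of 0.41 and the other pair 1 clone by 0.44. The difference of the AID-silenced clones was -0.04, and that of AID-silenced pair 2 minus control pair 1 was also -0.04. The middle stretch therefore set the control clone of pair 2 apart from the other 3 clones, which lay within 0.04 of each other in median over all its members. Within classes of members by signal, the AID-silenced clone of pair 2 differed from the pair 1 clones by medians between -0.17 and 0.15.

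Within pair 1, the AID-silenced clone was higher than its control across the distal stretch by a median of 0.48 (interquartile range 0.29 to 0.69). Of the 185 members, 167, or 90.3%, lay above 0, and the running median was highest at Rbm15b, an RNA-binding protein gene, at 0.63. Over these members pair 2 had a median difference of -0.002, with 91 of 185 above 0. Compared with pair 2, the control clone of pair 1 was lower than the control clone by a median of 0.49 and lower than the pair 2 clone with AID silenced by 0.44. The control clone of pair 2 and the AID-silenced clone of pair 1 differed by 0.01, and the AID-silenced clones differed by -0.03. The distal stretch thus set the control clone of pair 1 apart, below the other 3.

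Across the proximal segment all 6 differences between clones had medians between -0.02 and 0.06. At the edges, the pair 2 running median was -0.18 at Usp28 and -0.30 at Zw10, the first member inside the middle stretch, and -0.251 at Atp1b3, the last inside, against -0.249 at Rnf7, the next gene. The pair 1 running median was 0.23 at Pik3cb and 0.30 at Cep70, the first member inside the distal stretch. The 12 members between the stretches were near the limit of both, with a median of 0.16 in pair 1 and -0.19 in pair 2.

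The stretches took in 185 of 579 chromosome 9 members in pair 1 and 208 in pair 2. The same scan of the other chromosomes placed 4.26% of their 9876 genes in a higher stretch of pair 1 and 1.6% in a lower stretch of pair 2. There were 10 stretches on 6 other chromosomes in pair 1 and 11 on 6 others in pair 2, so such runs were not found on chromosome 9 alone. As a share of their genes, some chromosomes held more: 245 of 349 genes of chromosome 16 lay in a higher stretch of pair 1, and 249 of 261 genes of chromosome 18 and 210 of 349 of chromosome 16 in a higher stretch of pair 2. The longest elsewhere held 112 genes in pair 1 (chromosome 8) and 171 in pair 2 (chromosome 18), shorter than the 185 and 208 members here.

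**Figure D2:**
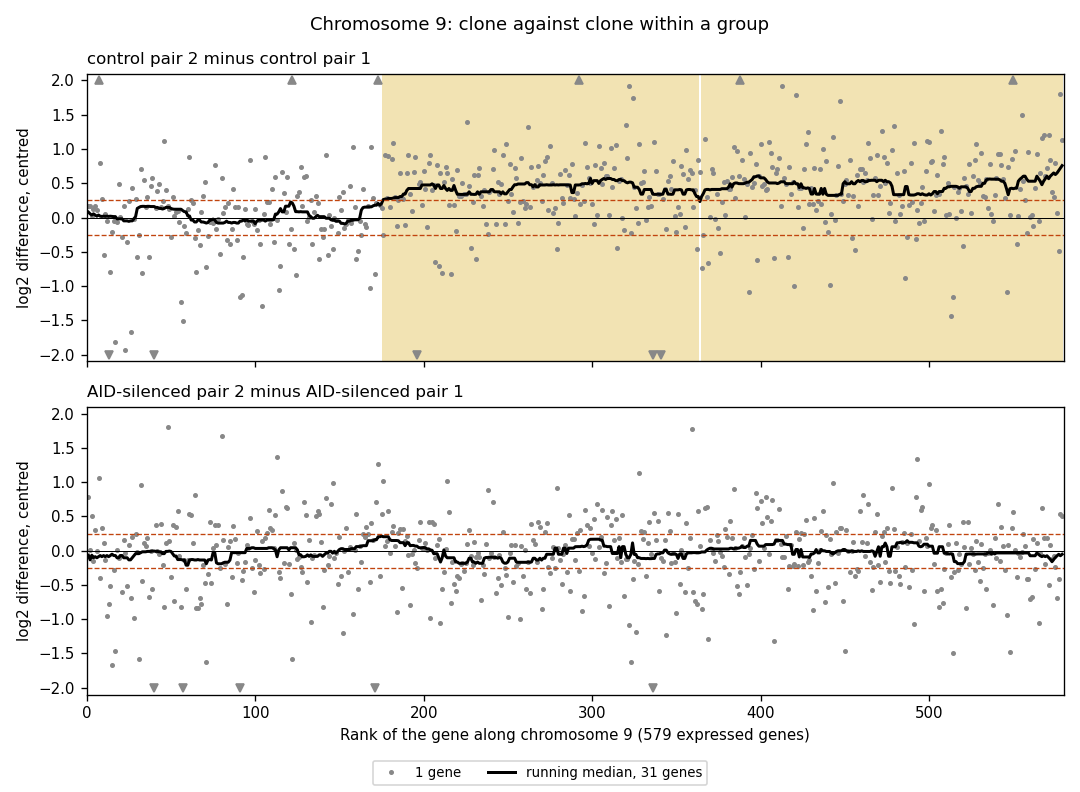
Log2 difference between the control clones and between the AID-silenced clones, pair 2 minus pair 1 (y axis, centred on all tested genes), against gene rank along chromosome 9 (x axis), drawn as points for 579 members with the running median over 31 members as a line. The control clones differ from Plet1 to the end of the chromosome, with a gap of 1 gene in the shading, and the AID-silenced clones have no stretch.

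Control against control, the running median rose near the start of the middle stretch and stayed above 0 to the end of the chromosome. The scan found a higher stretch of 188 members from Plet1 to Me1 and another of 215 members from Cep162 to Ppp2r3d, against 2.71% of the genes of other chromosomes in such a stretch. Only Cyb5r4 lay between them, at a running median of 0.23. By the carrier rule, the first was carried by the control clone of pair 2 and the second by the control clone of pair 1, so the control clones differed in 1 direction over both, with 1 control clone high in the first and the other low in the second. The running median was largest at the end of the chromosome, at 0.76. Between the AID-silenced clones no stretch was found on chromosome 9, against 1.96% of genes of other chromosomes in a higher stretch and 0.921% in a lower one.

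The step of pair 1 at Slc25a36 and Nmnat3 (members 387 and 388 in order) separated a median of 0.03 before it from 0.48 after it. The outermost points with a sum of deviations within 1% of the smallest lay after members 379 and 407. Points between these limits need not all meet the 1%. The steps of pair 2 separated medians of -0.02, -0.49 and -0.01. For pair 2, the outermost points within the same 1% lay after members 165 and 182 for the step between Plet1 and Pts (members 176 and 177). For the step between Slc25a36 and Nmnat3 they lay after members 364 and 399. The position shared by the pairs, which have no array in common, is thus not resolved to a single gene, and when the probe sets of a gene were averaged the step of pair 2 fell after member 374 while that of pair 1 stayed at 387. Control against control, a single step fell between Plet1 and Pts, from 0.02 to 0.46 (range 161 to 196). With 2 steps, that step stayed and the second fell between Tcaim and Zfp445, from 0.45 to 0.76. A single step of pair 2 fell between Cep70 and Armc8, from -0.25 to -0.001.

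At the shared step, Slc25a36 had signals of 769.7 in the control and 824.6 in the AID-silenced clone of pair 1, and of 1129.7 and 498.5 in those of pair 2. It was highest in the control clone of pair 2 and lowest in the AID-silenced clone of pair 2, with both clones of pair 1 between them, and so did not follow the median pattern of the middle stretch. The next gene, Nmnat3, had 37.1 in the control and 306.0 in the AID-silenced clone of pair 1, and 211.7 and 229.6 in those of pair 2. Only the control clone of pair 1 was low. A second Nmnat3 probe set gave 12.2, 66.5, 29.6 and 37.8 in the same order, with the same clone lowest.

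**Figure D3:**
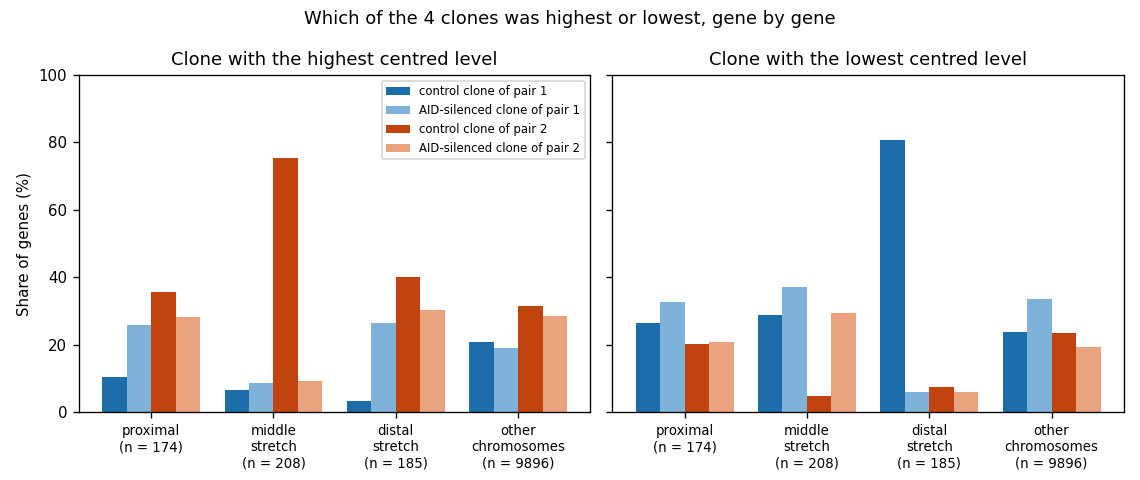
Share of genes (y axis, percent) in which each of the 4 clones had the highest (left) or the lowest (right) level after centring, for the proximal segment, the middle stretch, the distal stretch and the genes of other chromosomes. The control clone of pair 2 was highest in 75.5% of the middle stretch and the control clone of pair 1 lowest in 80.5% of the distal stretch. Choosing the stretches by the difference within 1 pair largely fixed the order of the clones of that pair.

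Gene by gene and after centring of each clone, the control clone of pair 2 had the highest level of the 4 in 157 of 208 members of the middle stretch (75.5%), against 62 of 174 proximal members (35.6%) and 31.5% of the genes of other chromosomes. The control clone of pair 1 had the lowest level in 149 of 185 members of the distal stretch (80.5%), against 46 of 174 proximal members (26.4%) and 23.8% of the genes of other chromosomes. Each stretch was chosen by the difference within 1 pair, which largely fixed the order of control and AID-silenced clone in that pair. The shares outside the stretches were not chosen in this way and are no like background. Inside the distal stretch the highest clone was spread over the other 3: it was the control clone of pair 2 for 74 members (40.0%, against 31.5% elsewhere), the AID-silenced clone of pair 2 for 56 (30.3%, against 28.5%) and that of pair 1 for 49 (26.5%, against 19.2%).

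Probe sets that the member rule had not used were also followed, and those at or above the signal limit showed the same steps. In the middle stretch, 181 further probe sets at or above the limit, from 106 genes, had a median difference of -0.39 in pair 2, with 45 above 0, and of 0.001 in pair 1. In the distal stretch, 154 further probe sets of 91 genes had a median of 0.43 in pair 1, with 136 above 0, and of 0.05 in pair 2. In the proximal segment the 131 further probe sets had medians of 0.07 and 0.10. These come from the same arrays and RNA and are no independent samples. The members' other probe sets below the limit had smaller medians, -0.10 in pair 2 over 77 in the middle stretch and 0.06 in pair 1 over 49 in the distal stretch. Probe sets of genes below the limit had medians near 0: 257 in the middle stretch had a median of -0.0002 in pair 2 and 186 in the distal stretch a median of -0.01 in pair 1. Among members, the middle stretch median of pair 2 was -0.37 in the dimmest of 3 classes by signal, -0.59 in the next and -0.47 in the brightest. The distal median of pair 1 was 0.41, 0.55 and 0.46 in the same classes. Between pairs the medians moved with signal. From the dimmest to the brightest class of the middle stretch, control against control was 0.19, 0.34 and 0.60. The AID-silenced clones differed there by -0.10, -0.17 and 0.13, and AID-silenced pair 2 minus control pair 1 was -0.10, -0.16 and 0.15. In the proximal segment the AID-silenced clones differed by -0.19, -0.06 and 0.11. The spread between genes was wider in the dimmest class, with a standard deviation of 0.99 in the middle stretch in pair 2 against 0.42 in the brightest.

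Across whole chromosomes, the chromosome 9 median was 0.15 in pair 1 and -0.15 in pair 2. The pair 1 value was second to that of chromosome 16 (0.30), and the pair 2 value was the lowest of 20 chromosomes, the next being X at -0.08. Control against control it was 0.32, the highest of 20, with the others between -0.08 and 0.04. The AID-silenced clones differed by -0.03, within the range of -0.06 to 0.28 over the other chromosomes. Members were higher in both pairs in 155 of 579 (26.8%) and lower in both in 152 (26.3%), against 26.7% and 27.5% of all tested genes. The direction shared by the pairs was thus no more frequent among members than over the genome.

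**Figure D4:**
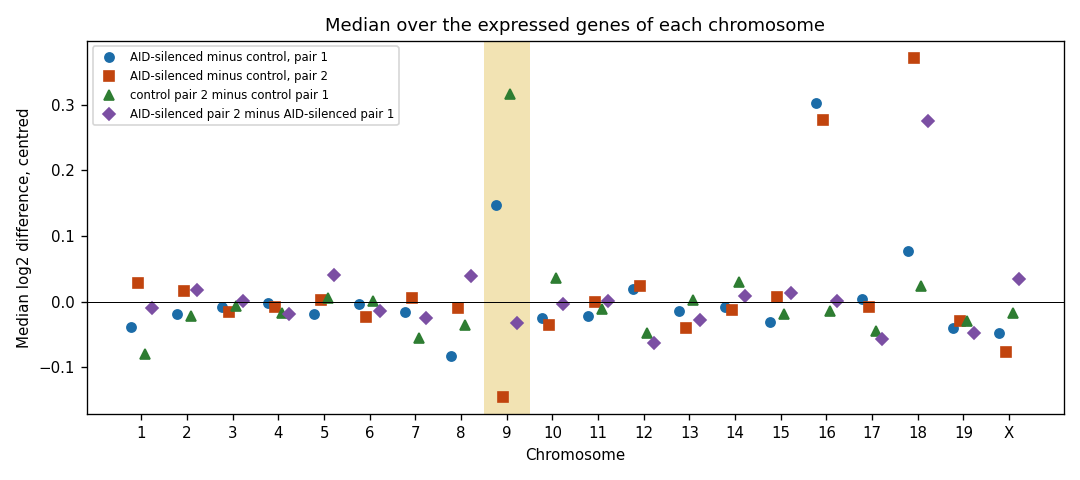
Median log2 difference over the tested genes of each chromosome (y axis, centred on all tested genes) for 4 contrasts between clones, with chromosome 9 shaded. Chromosome 9 is the highest in control pair 2 minus control pair 1 (0.32), positive in pair 1 (0.15) and the lowest in pair 2 (-0.15).

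The middle stretch held genes of protein turnover, DNA repair, signalling and metabolism that were highest in the control clone of pair 2. Nedd4, which encodes a ubiquitin ligase of membrane proteins, had signals of 3240.2 and 3153.9 in the control and AID-silenced clones of pair 1, and of 11740.3 and 1400.9 in those of pair 2. There the control clone of pair 2 stood far above the others and the AID-silenced clone of pair 2 lay lowest, at differences of -0.04 in pair 1 and -3.05 in pair 2. Its other 2 probe sets gave -3.18 and -2.50 in pair 2. Smad3, a mediator of TGF-beta signalling, had 239.1 and 193.3 in pair 1 and 591.8 and 161.5 in pair 2, a difference of -0.29 and -1.78. Again 1 clone was high and the other 3 were close together. Gclc, the catalytic subunit of the first enzyme of glutathione synthesis, had 1183.5 and 723.5 in pair 1 and 2445.2 and 1012.4 in pair 2. Both AID-silenced clones lay below their controls, at -0.70 and -1.26, with a second probe set at -0.74 and -1.21.

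Scamp5, a gene of secretory vesicle membranes, had 89.0 and 71.4 in pair 1 and 246.6 and 73.1 in pair 2. Cul5, a scaffold of ubiquitin ligases, had 412.7 and 399.7 in pair 1 and 739.9 and 332.3 in pair 2. Ddx10, an RNA helicase gene, had 1157.7 and 1005.2 in pair 1 and 2106.0 and 917.4 in pair 2. In these 3 genes the control clone of pair 2 alone was apart from the others. Ccpg1 had 357.0 and 648.5 in pair 1 and 1181.8 and 456.8 in pair 2, so its pairs differed in direction (0.83 and -1.34).

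Atm, the kinase that senses DNA double-strand breaks, had 712.3 and 693.6 in pair 1 and 867.4 and 372.9 in pair 2. Here the AID-silenced clone of pair 2 was low rather than the control high, with differences of 0.28 between the control clones and -0.87 between the AID-silenced clones. Usp3, a deubiquitinase gene, had 2790.3 and 3127.3 in pair 1 and 3722.1 and 1614.8 in pair 2. Tle3, a transcriptional co-repressor gene, had 1186.3 and 1205.7 in pair 1 and 1350.3 and 580.6 in pair 2. Rab11a, a gene of recycling endosomes, had 2528.9 and 2626.5 in pair 1 and 2864.8 and 1370.3 in pair 2. All 4 of these genes had the AID-silenced clone of pair 2 lowest by a wide margin, with the other 3 clones closer together, so the members did not all follow the stretch's median pattern.

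Among bright members of the middle stretch, Eef1a1, the translation elongation factor, had 38904.8 and 41390.2 in pair 1 and 49422.2 and 43703.1 in pair 2, at 0.09 and -0.18. Rpl4, a ribosomal protein gene, had 34834.6 and 36118.2 in pair 1 and 45416.0 and 38214.9 in pair 2, at 0.05 and -0.25. Psma4, a proteasome subunit gene, had 10543.2 and 9414.0 in pair 1 and 17430.8 and 11998.9 in pair 2, at -0.16 and -0.54. For all 3, the control clone of pair 2 was the highest.

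A few members of the middle stretch went far against it. Slc35f2, a solute carrier gene, had 619.2 and 794.7 in pair 1 and 7.6 and 628.0 in pair 2, so that the control clone of pair 2 was below the signal limit and the AID-silenced clone 4.77 above it. Gsta4, a glutathione transferase gene, had 353.9 and 153.3 in pair 1 and 13.0 and 132.8 in pair 2. Both were lowest in the clone that was highest over the stretch. Dapk2, a death-associated kinase gene, had 76.7 and 428.4 in pair 1 and 412.4 and 328.4 in pair 2, so that the control clone of pair 1 alone was low although the gene lies outside the distal stretch.

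**Figure D5:**
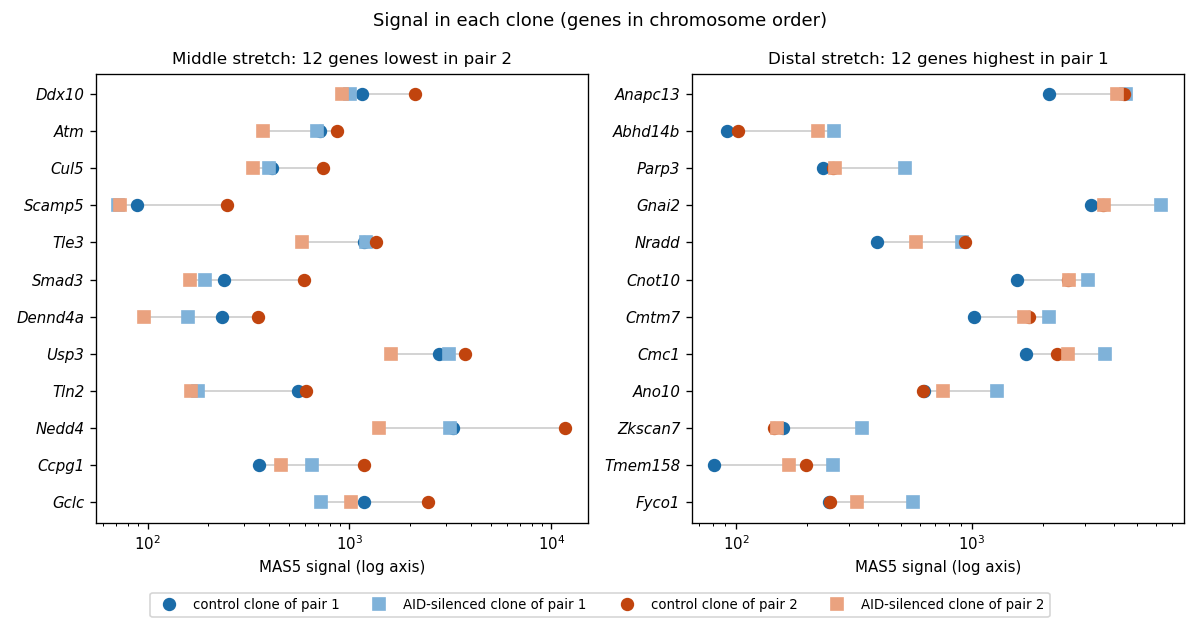
MAS5 signal (x axis, log scale) of 12 members of the middle stretch and 12 of the distal stretch, in chromosome order, with 1 symbol per clone. They were the lowest in pair 2 and the highest in pair 1, among members at or above the signal limit in both clones of that pair. The control clone of pair 2 is the highest in all 12 middle genes, and the control clone of pair 1 is the lowest in 10 of 12 distal genes, the exceptions being Ano10 and Zkscan7. The genes were chosen by the same differences, which fixed the order of control and AID-silenced clone within that pair, so these counts do not show which clone stands apart.

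In the distal stretch the named members were mostly lowest in the control clone of pair 1. Anapc13, a subunit of the anaphase-promoting complex, had 2127.9 and 4483.5 in the control and AID-silenced clones of pair 1, and 4399.3 and 4107.4 in those of pair 2. The other 3 clones lay together above it, and pair 1 differed by 1.07 while pair 2 differed by -0.10. Cnot10, of the CCR4-NOT complex that shortens mRNA tails, had 1556.4 and 3106.2 in pair 1 and 2561.9 and 2566.6 in pair 2, at 0.99 and 0.00. Cmtm7 had 1016.6 and 2110.5 in pair 1 and 1743.8 and 1654.1 in pair 2, at 1.04 and -0.08. Tmem158 had 80.9 and 258.1 in pair 1 and 198.3 and 168.0 in pair 2, with a difference of -0.22 in pair 2. In each of these genes the control clone of pair 1 lay below all others.

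Gnai2, an inhibitory G protein subunit, had 3185.0 and 6344.6 in pair 1 and 3586.2 and 3609.5 in pair 2. Its differences were 0.99 in pair 1 and 0.01 in pair 2, but a second probe set was high in both AID-silenced clones, at 0.61 and 0.51. Parp3, a DNA-break response enzyme, had 234.4 and 520.4 in pair 1 and 257.5 and 263.3 in pair 2. Ano10 had 627.5 and 1271.3 in pair 1 and 617.0 and 749.8 in pair 2. On these brightest probe sets the AID-silenced clone of pair 1 was high and the other 3 clones were closer together. The further Parp3 probe sets differed from this: one gave 393.3, 342.1, 331.9 and 167.5 and the other 204.6, 306.4, 78.5 and 137.3 in the control and AID-silenced clones of pair 1 and then of pair 2. Rpsa, a ribosomal protein gene and one of the 3 brightest members, had 36279.9 and 42638.8 in pair 1 and 51163.9 and 42542.8 in pair 2, with the control clone of pair 1 lowest.

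Against the direction of the distal stretch, Fbxw16, Fbxl2, Entpd3, Als2cl and Fbxw22 had pair 1 differences between -0.94 and -0.62. Fbxw16 was below the signal limit in 1 clone, with 100.9 and 44.9 in pair 1. Entpd3, an ectonucleotidase gene, had 185.5 and 98.4 in pair 1 and 75.1 and 40.8 in pair 2, with both AID-silenced clones below their controls.

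Single members of the proximal segment, which had no stretch, also differed widely between clones. Yap1, a coactivator of the Hippo pathway, had 1062.3 and 1252.4 in pair 1 and 130.4 and 684.8 in pair 2. Amotl1, whose product binds YAP, had 763.3 and 808.6 in pair 1 and 178.8 and 751.6 in pair 2. Both were low in the control clone of pair 2 alone, and further probe sets of both genes gave 2.21 for Yap1 and 1.60 for Amotl1 in pair 2. Angptl6 had 2703.6 and 2476.0 in pair 1 and 626.0 and 309.9 in pair 2. Slc44a2, a choline transporter-like gene, had 1486.6 and 1763.8 in pair 1 and 490.1 and 325.5 in pair 2. These were high in both clones of pair 1 and low in both of pair 2.

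Set against the question of the study, which members differed with AID silencing, 4 members were at least 2-fold higher in the AID-silenced clone in both pairs (0.691% of members, against 0.563% of all tested genes) and 3 at least 2-fold lower (0.518%, against 0.449%). Another 3 reached 2-fold in both pairs but in opposite directions (0.518%, against 0.391%). These shares are near the background. Tmem108, a transmembrane protein gene, had 31.6 and 291.0 in pair 1 and 67.4 and 430.0 in pair 2. Sema3f, a secreted guidance cue, had 45.0 and 236.5 in pair 1 and 68.9 and 278.6 in pair 2. Abhd14b had 91.3 and 259.8 in pair 1 and 101.6 and 222.5 in pair 2. In all 3, which lie in the distal stretch, both control clones were below both AID-silenced clones. Tmem108 and Sema3f were below the signal limit in the control clone of pair 1. Lysmd2 had 192.7 and 506.0 in pair 1 and 5.7 and 68.7 in pair 2, so its groups overlapped. Another Sema3f probe set differed in direction between the pairs (0.97 and -1.04), at signals of 17.1 to 73.7.

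Casp1, the inflammasome protease, had 193.2 and 2.4 in pair 1 and 1150.6 and 20.5 in pair 2, with both control clones far above both AID-silenced clones. Il18, a cytokine whose precursor caspase 1 cleaves, had 122.3 and 34.7 in pair 1 and 145.1 and 37.3 in pair 2, again without overlap. Casp1 and Il18 were below the signal limit in both AID-silenced clones, so the sizes of these differences rest on dim values. Tln2, talin 2, a link between integrins and actin, had 558.1 and 177.7 in pair 1 and 611.5 and 163.0 in pair 2. Casp1 lies in the proximal segment, and Il18 and Tln2 lie in the middle stretch. The Tln2 value rests on its brightest probe set, since a dim one gave 0.86 and -1.46.

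By limma on the 22519 tested probe sets of all 4 arrays, no member passed a Benjamini-Hochberg adjusted p of 0.05 in AID-silenced against control (0 of 579, against 0.00888% of all probe sets). At an unadjusted p under 0.05 there were 26 members (4.49%, against 3.49%). The mean difference of Tmem108 was 2.55 ± 0.41 (SE, 2 clones a group, limma adjusted p = 0.6148), that of Tln2 -1.69 ± 0.28 (limma adjusted p = 0.6491) and that of Casp1 -4.25 ± 0.81 (limma adjusted p = 0.7776). With the pair number as a block, limma also called 0 members (against 0.0355% of all probe sets), and the adjusted p of Casp1 was 0.07581 and that of Tmem108 0.09956. Pair 2 against pair 1 gave 0 members at the adjusted threshold (against 0.0%) and 81 at an unadjusted p under 0.05 (14.0%, against 13.5%). Leaving out 1 clone leaves a lone clone in its group, whose own variation cannot be measured. Limma calls of such fits are therefore listed only among the processing alternatives, and no conclusion is drawn from them. An exact permutation test of 2 clones against 2 cannot go below a two-sided p of 0.333.

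At least 2-fold differences within a pair followed the stretches in part. In the middle stretch 18 of 208 members were at least 2-fold lower in pair 2 (8.65%, against 3.2% of all tested genes), but in the proximal segment, which has no stretch, 12 of 174 were so (6.9%). In the distal stretch 13 of 185 were at least 2-fold higher in pair 1 and 0 at least 2-fold lower (7.03% and 0.0%, against 3.0% and 2.08%). Control against control, 23 distal members were at least 2-fold higher in pair 2 (12.4%, against 3.44%). The stretches were thus made of many members with differences below 2-fold.

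Counted by function, all lists of chromosome 9 genes but the chemokine receptors were spread over several segments. Energy metabolism and redox had 25 members, of which 15 lie in the middle stretch, with medians of 0.02 in pair 1 and -0.30 in pair 2. Of these 25, 4 were higher and 9 lower in both pairs, and none was called. Within it Elovl5, a fatty acid elongase gene, had 4906.9 and 4173.0 in pair 1 and 7513.9 and 4439.7 in pair 2, and Me1, malic enzyme, had 2877.0 and 2258.0 in pair 1 and 4940.5 and 3215.8 in pair 2. For both genes the control clone of pair 2 was highest.

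Translation and protein turnover had 23 members, 7 in the middle and 10 in the distal stretch, with medians of 0.10 and -0.15. Of these, 6 were higher and 6 lower in both pairs. DNA damage and cell cycle had 21 members with medians of 0.21 and -0.09, of which 7 were higher and 5 lower in both pairs. In this list Kif23, a motor of cytokinesis, had 1484.8 and 1379.7 in pair 1 and 2461.9 and 1277.8 in pair 2, at -0.10 and -0.94. Another Kif23 probe set above the signal limit was lower in both AID-silenced clones, at -1.45 and -1.24, and a dim one gave 0.67 and -0.42. Cytoskeleton, trafficking and adhesion had 27 members (14 in the middle stretch) with medians of 0.17 and -0.18, 6 higher and 5 lower in both pairs.

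Chromatin and transcription had 23 members, 10 of them proximal, 10 in the middle stretch and 3 in the distal stretch. Their medians were 0.10 and -0.26, and 2 were higher and 8 lower in both pairs. B cell and lymphocyte genes had 9 members with medians of 0.25 and 0.02, 4 higher and 1 lower in both. Csk, the kinase that restrains Src family kinases, had 3274.7 and 3493.6 in pair 1 and 4815.5 and 3237.8 in pair 2. Fli1, an ETS factor of the proximal segment, had 987.4 and 817.7 in pair 1 and 377.9 and 861.8 in pair 2, low only in the control clone of pair 2. Apoptosis, inflammasome and innate signalling had 9 members with medians of 0.21 and 0.02, 5 higher and 3 lower in both pairs.

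Of the 14 chemokine receptor genes on the chromosome only 3 reached the signal limit: Ccrl2, Ackr4 and Ackr2, all in the distal stretch. Their medians were -0.16 in pair 1 and -0.61 in pair 2, against 0.48 and -0.002 for the whole stretch. Ccrl2 had 665.0 and 595.0 in pair 1 and 275.1 and 189.5 in pair 2. For all lists the medians of all tested genes are 0 by centring, and limma called 0 members of any list.

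The 4 clones carried the markers of their labelled cell type. All 9 plasma cell genes (Sdc1, Xbp1, Irf4 and others) were above the signal limit, with summed signals of 135657 to 175194.5. Of other cell types, 2 of 6 T cell, 2 of 6 myeloid, 1 of 2 erythroid and 1 of 4 fibroblast genes were above it, with summed signals of 555.2 to 1981.6, 1033.9 to 1209.6, 67.4 to 116.0 and 135.8 to 203.6. Cd3e was at 14.9 to 58.7 and Cd14 at 7.7 to 28.2. Other genes of the same T cell and myeloid lists were brighter, with Cd28 at 409.9 to 1901.6, Cd68 at 571.7 to 866.1 and Csf1r at 212.6 to 292.9. Each array had a trimmed mean of 500 and a median signal between 52.7 and 54.9. In bulk RNA, fewer cells with a gene on and less RNA per cell cannot be told apart.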

How the data were processed

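Total RNA of 4 clones was measured on Affymetrix Mouse 430 2.0 arrays, 1 array per clone. The deposited values are linear array intensities, 1 per probe set, which the authors computed with the MAS5 algorithm, as named in the submitters' processing notes. It weighs perfect-match against mismatch probes and applies a global scale. Trimmed means (2%) were checked and equalled 500 on every array, so no further normalisation was done. Of 45101 probe sets, 64 Affymetrix controls were left out. Signals were used as log2(signal + 16), which understates the differences of dim genes. Symbols came from the platform annotation, where 34945 probe sets had 1 symbol, 932 several and 9160 were not listed, and the several and the unlisted were named for no gene. Of the 34945, 34735 were matched by gene identifier and 143 by symbol to a RefSeq gene table of GRCm38.p6, used for names and gene order, and 67 were not matched.

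Members and lists were chosen with earlier results of these data known. Tests used limma 3.58.1 (R 4.3.3) with lmFit and eBayes (trended, robust) on 22519 probe sets, adjusted by Benjamini-Hochberg. The p-values rest on variation from clone to clone, clonal and technical together, and 4 arrays limit the precision. Both the stretch scan and the limma step were run on simulated data with planted differences and independent noise of the same spread for all genes. The simulations held no clone or pair effects, so they do not show how either step behaves on these arrays. The labels number the pairs without saying what a pair shares. Pair 2 minus pair 1 in the control clones correlated with the same difference in the AID-silenced clones (r = 0.306 over 22519 probe sets), and the numbers were taken as pairs. Named genes were members at least 2-fold apart in both pairs (same or opposite direction), the extremes of each contrast, the ends and largest differences of each stretch, up to 6 members of each list by mean difference, the 3 brightest and any called by limma. The largest differences of a stretch were taken among members at or above the signal limit in both clones compared. Genes at the steps and in the paragraph of background were named in addition. Alternatives covered pseudocounts, quantile normalisation, signal limits, averaging of probe sets, centring, windows, thresholds, left-out clones and the pair block. The level of the silenced gene is not reported here. Figures were drawn with matplotlib 3.10.9.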

Additional observations from a re-analysis of the deposited data

Results flagged for a closer look

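The 2 pairs differed in direction over the chromosome as a whole: the median over the 579 members was 0.147 in pair 1 and -0.146 in pair 2. This difference between the pairs was not tested.

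The other results were members at least 2-fold apart in opposite directions in the 2 pairs, for which the difference was likewise not tested. Hepacam, an adhesion protein gene, had 16.5 in the control and 159.4 in the AID-silenced clone of pair 1, and 120.1 and 39.9 in those of pair 2, at 2.43 and -1.28. A second Hepacam probe set gave 1.67 and -0.61. Htr3b, a serotonin receptor subunit gene, had 31 and 84.5 in pair 1 and 491.6 and 212.9 in pair 2, at 1.10 and -1.15. It is the second member before the middle stretch, and both clones of pair 2 were above both of pair 1. Gsta4 had 353.9 and 153.3 in pair 1 and 13.0 and 132.8 in pair 2, at -1.13 and 2.36. Hepacam was below the signal limit in the control clone of pair 1 and the AID-silenced clone of pair 2. Htr3b was below it in the control clone of pair 1 and Gsta4 in the control clone of pair 2, so these differences rest in part on dim values.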

How the results depend on the processing

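Of the alternatives run for medians, stretches, counts and limma calls, 148 values stayed the same, 30 moved and 1 reversed. A median counted as the same within an interval taken over genes, and a stretch size or 2-fold count within a set factor. Limma settings that again called no member also counted as the same, which few clones make likely. The steps were not part of this tally. The stretches of both pairs and their carriers were found again under other windows (15 or 61 genes), thresholds (0.2 or 0.35), pseudocounts (1 or 64), quantile normalisation, averaged probe sets and no centring, though broken into pieces with 15 genes, at 0.35 or without the signal limit, where 1 piece of the pair 2 stretch had no single carrier with 15 genes and 1 without the limit. The stretch of control against control had no single carrier under quantile normalisation, 61 genes, 0.2, the trimmed running mean and the brightest genes, where both parts joined, nor in 4 of its 8 pieces without the signal limit, 1 of them proximal (Hepacam to Hspa8). All steps stayed within their stated ranges. Without the limit on low signals (1006 genes) the median of control against control was 0.193. In the middle stretch it was then -0.333 in pair 2, 0.303 for control against control and 0.273 for the control clone of pair 2 minus the AID-silenced clone of pair 1. In the distal stretch it was 0.396 in pair 1, 0.311 for control against control and 0.331 for the AID-silenced clone of pair 2 minus the control clone of pair 1. Without centring the control clones differed by 0.252 and the AID-silenced clones by -0.104. The second brightest probe set, available for 348 genes, gave stretches of 119 genes in pair 1, 107 in pair 2, 231 control against control and 16 between the AID-silenced clones. The carriers in pair 1 and pair 2 were then the same control clones, while the stretches of control against control and of the AID-silenced clones had no single carrier.

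The mean of both pairs hung on the control clones. Over the chromosome it was -0.012, and leaving out 1 clone at a time gave -0.179 (without the control clone of pair 1) to 0.144 (without the control clone of pair 2). In the middle stretch it was -0.225 with a range of -0.455 to -0.043, and in the distal stretch 0.234 with a range of -0.014 to 0.495, from the same clones in the same order. Leaving out a clone gave 0 to 5 members called by limma for AID silencing, and 0 to 3 for pair 2 against pair 1, the 3 being Yap1, Slc35f2 and Nedd4 without the AID-silenced clone of pair 2. A lone clone is then assumed to vary like the others. With the replicate block limma called 0 members. Members at least 2-fold apart in both pairs numbered 5 lower with a pseudocount of 1, 2 higher and 0 opposite with a pseudocount of 64, 9 higher, 11 lower and 13 opposite without the signal limit, and 0 in each class among the brightest 389 genes. Of 452 mean differences of 113 named genes, 6 changed sign, none with a size above 0.14. Signal over background limits the dim members, since MAS5 signals near background vary widely. The cause of each change was not tested.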
